A study of Mus musculus with 8 samples.

Results

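Of 31523 H3K36me3 peaks that were at least 1000 bases long on chromosomes 1 to 19 of untreated mouse embryonic fibroblasts (MEFs), 3998 (12.7%) shared no base with any peak of the OSKM library and had 50% or more of their bases inside peaks of the OSKM B12 library. These 3998 regions are described here. They were selected on 3 of the 4 H3K36me3 libraries, namely MEF, OSKM and OSKM B12, so their presence in MEF, their absence in OSKM and their cover in OSKM B12 are descriptions and were not tested. The MEF B12 library, the place of a region in its gene and its base composition played no part in the choice.

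The cells were i4F MEFs, fibroblasts with a doxycycline-inducible cassette that encodes OCT4, SOX2, KLF4 and MYC (together OSKM), taken from mouse embryos at day 13.5. All 4 conditions used the same clone (Clone 1), grown for 72 h in medium for induced pluripotent stem cells, and all carried the cassette. MEF received neither agent, MEF B12 received 2 µM vitamin B12, OSKM received 1 µg/ml doxycycline, and OSKM B12 received both. The doxycycline dose is that of the labels, while the study's methods write it in mg per ml. No condition received doxycycline in cells without the cassette. A single H3K36me3 library and a single input library stood for each condition, so there was no replicate error, no test between conditions was possible, and every interval below is a 95% interval over regions that covers counting error only.

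H3K36me3, trimethylated lysine 36 of histone H3, is deposited by SETD2 as it travels with elongating RNA polymerase II, and it marks the transcribed bodies of active genes, rising toward their ends. Readers of the mark keep the chromatin behind the polymerase closed and restrain transcription that starts inside genes. The methyl group comes from S-adenosylmethionine, which is made from methionine, and vitamin B12 is a cofactor of methionine synthase. In bulk chromatin, fewer cells carrying a mark and less mark per cell cannot be told apart.

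Windows are printed for 6 regions, taken from those with the highest MEF level and the longest. Each of the 6 crossed a boundary between a coding exon and an intron, and 50 bases on each side of one such boundary are shown. The windows were placed on such boundaries by choice and are not typical of the regions, whose bases were in coding exons at a mean of 5.52%. The genome is GRCm38.p6 (mm10) from RefSeq and the exons are those of GENCODE M21. Sequences run 5′ to 3′ on the strand of the gene, with the coding exon in capitals and the intron in lower case. Herc1 (chr9:66400130-66400229, plus strand, end of exon 16 of 78), Ift122 (chr6:115877502-115877601, plus strand, end of exon 5 of 29), Ints8 (chr4:11230459-11230558, minus strand, start of exon 12 of 28), Atf2 (chr2:73842397-73842496, minus strand, start of exon 8 of 12), Usp34 (chr11:23460512-23460611, plus strand, start of exon 67 of 80) and Vps37a (chr8:40540629-40540728, plus strand, start of exon 7 of 12) are shown.
Herc1: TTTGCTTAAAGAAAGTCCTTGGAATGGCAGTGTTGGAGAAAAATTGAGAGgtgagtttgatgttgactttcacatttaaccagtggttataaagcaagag
Ift122: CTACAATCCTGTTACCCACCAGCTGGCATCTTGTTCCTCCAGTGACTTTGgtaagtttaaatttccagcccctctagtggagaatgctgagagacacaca
Ints8: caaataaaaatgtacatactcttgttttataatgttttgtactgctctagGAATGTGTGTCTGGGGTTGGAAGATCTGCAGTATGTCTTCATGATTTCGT
Atf2: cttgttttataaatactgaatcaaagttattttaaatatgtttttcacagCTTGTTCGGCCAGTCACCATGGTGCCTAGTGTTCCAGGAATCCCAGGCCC
Usp34: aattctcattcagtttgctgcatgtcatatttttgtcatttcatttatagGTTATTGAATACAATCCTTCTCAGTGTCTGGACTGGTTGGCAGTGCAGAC
Vps37a: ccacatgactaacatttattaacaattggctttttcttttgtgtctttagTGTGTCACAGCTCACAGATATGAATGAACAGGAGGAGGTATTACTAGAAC
Each intron began with gt or ended with ag at the boundary, the bases at which splicing takes place, and none of the windows lay at the first exon of its gene.

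Before the regions are described, the OSKM list has to be set beside the other 3, because it stood apart. OSKM peaks covered 91.8 Mb of chromosomes 1 to 19, against 150 Mb in MEF, 163 Mb in MEF B12 and 163 Mb in OSKM B12, although the number of peaks was close (64364 to 67234) and OSKM had the most tags (33399267, against 29046913 to 32582688). Of the 31523 long MEF peaks, 5723 shared no base with OSKM peaks, 548 none with MEF B12 peaks and 602 none with OSKM B12 peaks. The mirror image of the rule, absent in OSKM B12 with 50% or more in OSKM, was met by 23 peaks. Absence in OSKM with 50% or more in MEF B12 peaks was met by 4153 peaks, slightly more than the 3998 of the rule. With 1 library per condition, a difference of condition and a difference of library cannot be told apart.

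The regions were short and of low level. Their median length was 1379 bases (5% to 95% range 1027 to 2737, longest 6954). The level of a peak is given as its pileup, the mean number of overlapping fragments, per 1000000 tags of its library. The median level in MEF was 0.436 (5% to 95% range 0.355 to 0.543), which is a pileup of 14.2 fragments, and the median fold enrichment over input was 2.64. The share of MEF peaks that met the rule was 29.2% (28.2 to 30.2) at 1000 to 1499 bases, 19.7% (18.6 to 20.9) at 1500 to 1999 bases, 9.29% (8.56 to 10.1) at 2000 to 2999 bases and 2.50% (2.11 to 2.96) at 3000 to 4999 bases. Only 5 of 7553 peaks of 5000 bases or more met it.

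Level and length both went with the share, which was highest at a level just above the lowest. At 1000 to 1499 bases, 34.5% of peaks with a level of 0.35 to under 0.4 met the rule, against 27.8% (23.8 to 32.2) below 0.35, 14.0% at 0.55 to under 0.6 and 5.13% at 0.6 or above. At 3000 to 4999 bases, the shares at 0.35 to under 0.4 and at 0.6 or above were 20.3% and 0.0640%. The MEF levels of the regions were also set beside the levels of OSKM peaks. Of the 3998 regions, 98.9% (98.5 to 99.2) had a MEF level above the 5% point of all OSKM peaks (0.332), and 54.4% (52.9 to 55.9) lay above the OSKM median of 0.430. For all MEF peaks of any length on chromosomes 1 to 19, the 5% point was 0.327 and the median 0.442. Most MEF peaks thus lay above both marks, and the shares are not particular to the regions. The OSKM level inside the regions themselves is unknown, since the peak lists give values only within peaks.

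**Figure D1:**
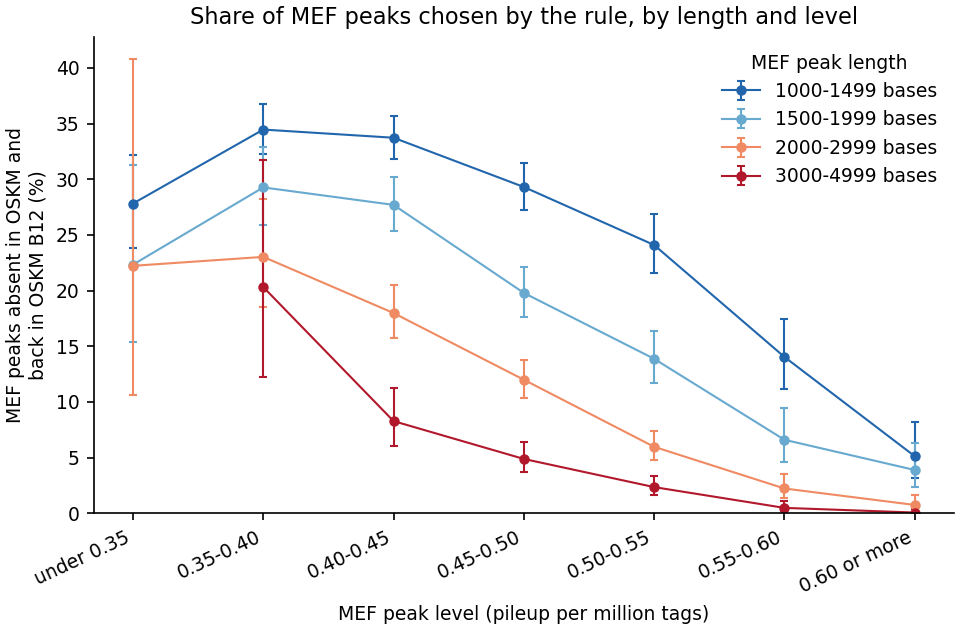
Share (%) of MEF peaks on chromosomes 1 to 19 with no base in OSKM peaks and 50% or more in OSKM B12 peaks, by MEF level (x axis, pileup per 1000000 tags) and length (colours); bars are 95% Wilson intervals and points with under 20 peaks are left out. The share reached 34.5% in the shortest class at 0.35 to under 0.4 and was 0.0640% at 3000 to 4999 bases and 0.6 or above.

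Values on both sides of the thresholds were close. Peaks of 900 to 999 bases that otherwise met the rule numbered 856, with a median level of 0.422, and those of 1000 to 1099 bases numbered 684, with a median level of 0.425. The 225 peaks with 45% to under 50% of their bases in OSKM B12 peaks had a median level of 0.405, and the 256 with 50% to under 55% had 0.411. A further 300 peaks had over 0% and up to 10% of their bases in OSKM peaks and 50% or more in OSKM B12 peaks, with a median level of 0.445.

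The MEF B12 library, which the rule did not use, covered most of the regions. Of the 3998 regions, 3268 (81.7%, 80.5 to 82.9) had 50% or more of their bases in MEF B12 peaks, 927 lay wholly inside them and 132 shared no base with them. Across all 31523 long MEF peaks the share at 50% or more was 92.0%. Since the regions were shorter and lower than most, OSKM-overlapping MEF peaks were weighted to the same distribution over 100 strata of length and level, using 19817 of the 25800 such peaks. Of these weighted peaks, 86.4% had 50% or more of their bases in MEF B12 peaks. The mean cover was 73.6% (72.8 to 74.5) in the regions and 78.5% in the weighted peaks, a difference of −4.91 percentage points. Cover in OSKM B12 was required of the regions but not of the weighted peaks, of which 87.6% had 50% or more there. Among the regions with 90% or more of their bases in OSKM B12 peaks this difference was −0.50, and with −log10 q of at least 3 in MEF and OSKM B12 it was −2.04.

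The 1725 peaks that were absent in OSKM and had under 50% of their bases in OSKM B12 peaks were covered less still. Their mean cover in MEF B12 was 49.1%, or 57.2% when weighted to the length and level of the 3998 regions, and 291 of them shared no base with MEF B12 peaks. Among MEF peaks absent in OSKM, those covered in OSKM B12 were thus also the more covered in MEF B12, which had no doxycycline. Only 354 regions (8.85%) lay wholly inside both MEF B12 and OSKM B12 peaks, while 2452 had 50% to under 90% of their bases in OSKM B12 peaks.

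**Figure D2:**
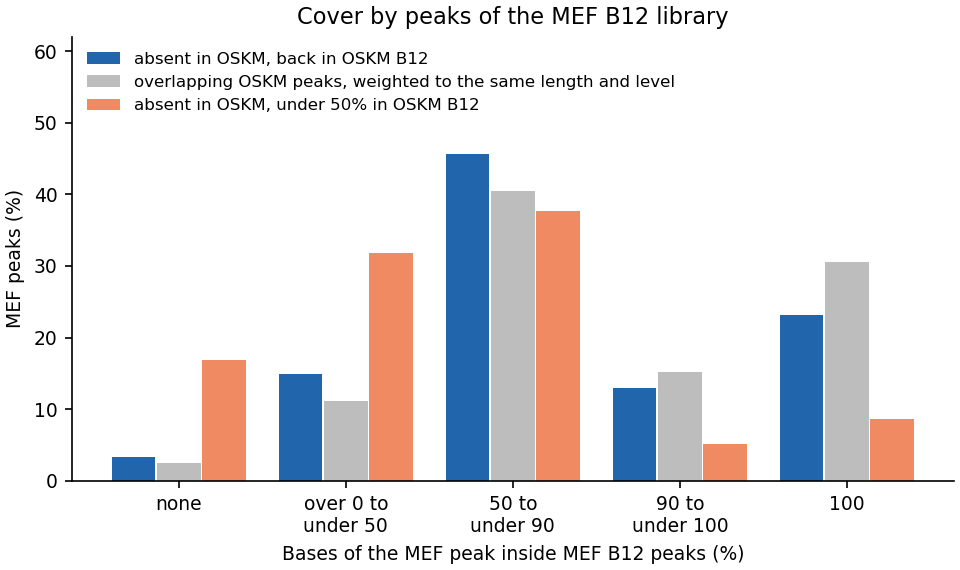
Share (%) of MEF peaks (y axis) by the percentage of their bases inside MEF B12 peaks (x axis), for the 3998 regions, for OSKM-overlapping MEF peaks weighted to the same length and level, and for the 1725 peaks absent in OSKM with under 50% in OSKM B12 peaks; there are no error bars because each condition is 1 library. The share with no MEF B12 base was 3.30% in the regions, 2.43% in the weighted peaks and 16.9% in the third set.

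The levels in the B12 libraries were read over the bases called in them, where the value is the mean of the whole B12 peak and not of the region alone. Over the bases shared with MEF B12, the mean level was 0.507 in MEF B12 and 0.451 in MEF, a ratio of 1.12 (1.12 to 1.13), and the weighted peaks gave 1.16. Over the bases shared with OSKM B12, the means were 0.503 and 0.447, a ratio of 1.13 (1.12 to 1.13), with 1.20 in the weighted peaks. Without division by tags the MEF B12 ratio was 1.00 and the OSKM B12 ratio 1.02. The 2 B12 libraries had the fewest tags, so the size of these ratios depended on the scale. The weighted peaks had a higher ratio than the regions in both B12 libraries and on each scale. The 2 sides were not alike, since overlap with OSKM was required of the weighted peaks and OSKM B12 cover of the regions. The B12 peaks that held them also differed in length. Their medians were 1922 bases in MEF B12 and 1895 in OSKM B12 for the weighted peaks, against 1622 and 1618 for the regions. In OSKM, over the bases it called, the weighted peaks stood at 0.412 against 0.460 in MEF, a ratio of 0.897.

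Region by region, the spread was wide. The MEF B12 level was above the MEF level in 2957 of the 3866 regions with MEF B12 bases (quartiles of the ratio 1.00 and 1.22), and the OSKM B12 level was above it in 3026 of 3998 (1.00 and 1.22). Undivided, the pileup was above that of MEF in 1760 of 3866 and 2074 of 3998. Neighbouring regions seldom shared a peak, since 137 of the 3998 (3.43%) touched an OSKM B12 peak that another region also touched. The OSKM B12 peak that shared most bases with a region had a median length of 1618 bases (5% to 95% range 650 to 7554), so it was in part shorter and in part longer than the regions.

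The regions lay in gene bodies. Of the 3998, 3708 (92.7%, 91.9 to 93.5) had 50% or more of their bases in 1 protein-coding gene, against 92.6% of the weighted peaks, and 108 touched 2 or more such genes. By the largest share of bases, 3197 regions (80.0%, 78.7 to 81.2) were in introns after the first, 270 (6.75%, 6.02 to 7.57) in the first intron, 57 (1.43%, 1.10 to 1.84) in coding exons, 175 (4.38%, 3.79 to 5.06) in untranslated exons and 299 (7.48%, 6.70 to 8.34) outside protein-coding genes. The weighted peaks were at 79.0%, 5.23%, 2.26%, 5.72% and 7.77%. Thus the regions were more often in the first intron and less often in exons than the weighted peaks. Those weighted shares lay outside the counting intervals. The lower share in exons was not particular to the regions. Peaks absent in OSKM with under 50% in OSKM B12 peaks, unweighted, were at 6.20% in the first intron, 0.70% in coding exons and 4.81% in untranslated exons. An exon was touched by 46.8% (45.2 to 48.3) of the regions and by 52.5% of the weighted peaks. For peaks absent in OSKM with under 50% in OSKM B12 peaks, weighted alike, it was 45.3%. The weighted OSKM-overlapping peaks stayed slightly longer than the regions, at a mean of 1623 against 1562 bases. The part of length in this difference was not tested.

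Along the gene, with 0% at the transcription start site and 100% at the end, the regions had a median position of 58.0% (quartiles 35.2 and 80.6) and the weighted peaks 61.2% (37.2 and 82.6). Over 10 equal bins of the gene, the share of regions climbed from 4.15% in the first to 13.7% in the last, and that of the weighted peaks from 3.89% to 14.3%. From 80% to 90% of the gene the regions were at 12.2% and the weighted peaks at 14.0%. The genes were long, with a median of 74.0 kb against 65.9 kb for the weighted peaks and the same median of 15 exons.

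**Figure D3:**
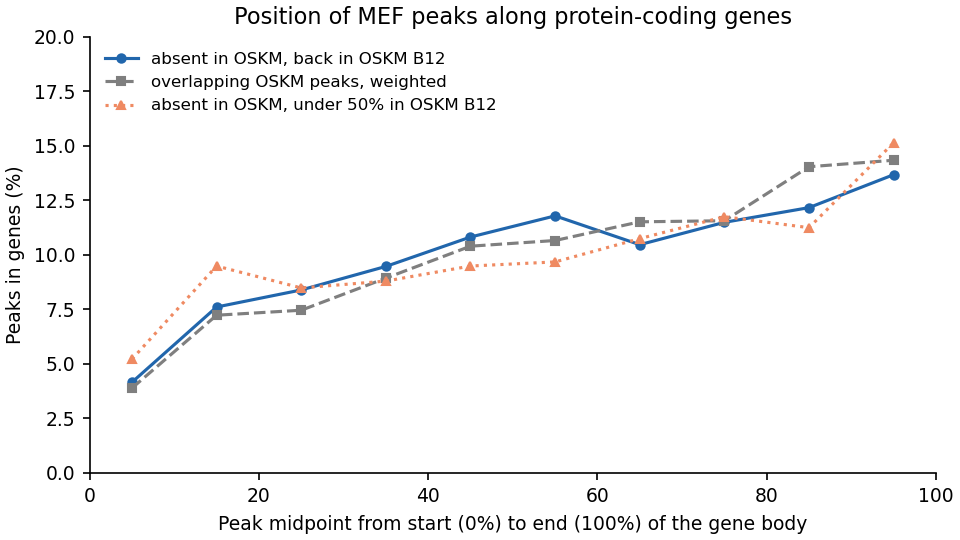
Share (%) of peaks in genes (y axis) by the position of the peak midpoint from the start to the end of the gene body (x axis, 10 bins), for 3708 regions, for weighted OSKM-overlapping MEF peaks and for peaks absent in OSKM with under 50% in OSKM B12 peaks; points are single-library shares without error. The first 2 lines rise together from 4.15% and 3.89% to 13.7% and 14.3%.

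Most genes of the regions had OSKM peaks elsewhere in their bodies. Of the 3708 regions in genes, 96.9% (96.3 to 97.5) lay in a gene with an OSKM peak in its body. In the weighted peaks the share was 95.9%, leaving out the OSKM peaks that overlap them, and the direction of this difference turned when regions with an OSKM peak within 1 kb were left out (95.3%, a difference of −0.59 percentage points). For 2522 regions (68.0%, 66.5 to 69.5) OSKM peaks lay on both sides within the gene, for 708 (19.1%, 17.9 to 20.4) only toward the end of the gene, for 363 (9.79%, 8.87 to 10.8) only toward the start, and for 115 (3.10%, 2.59 to 3.71) nowhere. In the weighted peaks these shares were 67.4%, 17.6%, 10.9% and 4.09%, so the regions lay as often between OSKM peaks as the weighted peaks within counting error. The nearest OSKM peak was at a median distance of 1501 bases, and 1486 regions (37.2%) had one within 1000 bases and 3207 (80.2%) within 5000 bases.

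The regions had fewer G and C bases than their weighted counterparts. Their mean GC content was 44.1% (44.0 to 44.3) against 45.9%, the ratio of observed to expected CpG was 0.214 (0.211 to 0.217) against 0.224, and the repeat-masked share was 21.9% (21.4 to 22.4) against 20.7%. The MEF fold enrichment over input was also lower, at a mean of 2.68 (2.67 to 2.69) against 2.75. The input level, computed back from pileup and fold enrichment, had a mean of 4.76 fragments (4.74 to 4.78) against 4.66. At like pileup a lower fold enrichment gives a higher value of this kind, so both express the same difference. Peaks absent in OSKM with under 50% in OSKM B12 peaks, weighted alike, had a GC content of 42.2%. GC content and fold enrichment moved with the choice of regions, and their part in it was not tested.

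The regions fell in 2342 of the 8516 protein-coding genes that held at least 50% of a MEF peak of 1000 bases or more (27.5%). Of these genes, 1546 had 1 region, 481 had 2 and 315 had 3 or more. A gene with more MEF peaks was more likely to hold one, from 6.55% (5.75 to 7.46) of genes with 1 such peak to 57.5% (54.9 to 60.0) of those with 5 to 9 and 79.3% (75.8 to 82.3) of those with 10 or more. In 237 genes each long MEF peak met the rule, and 211 of these had only 1. Genes with a region had a median length of 59.3 kb, against 20.9 kb for the other 6174. Their bodies were covered by peaks at a median of 35.8% in MEF, 39.8% in MEF B12 and 39.2% in OSKM B12, against 14.1% in OSKM. For genes without a region the medians were 56.1%, 59.0% and 59.8%, against 37.5% in OSKM. By the rule, genes with a region hold a MEF peak without an OSKM base and with OSKM B12 cover. That choice favours low OSKM cover and higher OSKM B12 cover in them.

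The regions with the highest MEF level lay in Herc1, Tmcc1, Manf, Ints8, Usp34, Vps37a, Ppme1, Btaf1, Rcc1 and Scfd1. Herc1, a giant HECT-type ubiquitin ligase, had the highest (chr9:66399321-66401005, intron 16), with a level of 0.713 in MEF, 0.707 in MEF B12, no peak in OSKM and 0.567 in OSKM B12. Tmcc1, an endoplasmic reticulum membrane protein, held a region of 4442 bases at 97.6% of the gene, with 0.703 in MEF, 0.618 in MEF B12, no peak in OSKM and 0.584 in OSKM B12. In both, the MEF value was the highest of the 3. Ints8, a subunit of the Integrator complex that cleaves nascent RNA (chr4:11229358-11231965), had 0.675, 0.734, no peak and 0.692 in the same order, and its region lay wholly in an OSKM B12 peak of 8138 bases.

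Usp34, a deubiquitinase, had 0.664 in MEF, 0.578 in MEF B12, no peak in OSKM and 0.443 in OSKM B12, the lowest OSKM B12 level of the 10. Vps37a, a subunit of the ESCRT-I sorting complex, had 0.647, 0.739, no peak and 0.688. Scfd1, which acts in vesicle fusion between endoplasmic reticulum and Golgi, had 0.637, 0.707, no peak and 0.713, the highest OSKM B12 level of the 10. The remaining regions, in Manf (a stress-induced factor of the endoplasmic reticulum), Ppme1 (which demethylates protein phosphatase 2A), Btaf1 (which moves the TATA-binding protein off DNA) and Rcc1 (the exchange factor of Ran), ranged from 0.607 to 0.661 in MEF B12 and from 0.623 to 0.644 in OSKM B12. The Manf region overlapped Dcaf1 as well. It was given to Manf through a longest transcript that spans 53561 bases, and its assignment to either gene is uncertain. Each of the 10 had 50% or more of its bases in MEF B12 peaks, and 4 of 10 had a higher level than in MEF in MEF B12 and 4 of 10 in OSKM B12. Regions picked for a high MEF value sit high in MEF by that choice.

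The longest regions lay in Nav1, Kif20b, Ift122, Atf2, Gm12353, Smarcad1, Kif23, Mcoln2, Ogn and 4932438A13Rik. The longest, 6954 bases in intron 2 of Nav1, a microtubule-associated protein (chr1:135595030-135601983), had 0.391 in MEF, 0.502 in MEF B12, no peak in OSKM and 0.556 in OSKM B12, and 53.2% of its bases were in OSKM B12 peaks. Kif20b, a kinesin of cytokinesis, held 5872 bases with 0.451, 0.543, no peak and 0.542. Ift122, a subunit of the intraflagellar transport machinery of cilia, held 5834 bases with 0.427, 0.456, no peak and 0.448. These 3 were lowest in MEF among the libraries with a peak.

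Atf2, a transcription factor that binds cAMP response elements, held 5679 bases with 0.510 in MEF, 0.548 in MEF B12, no peak in OSKM and 0.508 in OSKM B12. Smarcad1, a chromatin remodelling ATPase, had 0.447, 0.450, no peak and 0.469 over 4976 bases. Ogn, the matrix proteoglycan osteoglycin, had 0.518, 0.562, no peak and 0.500 over 4635 bases that Cenpp also spans. The region of Gm12353 overlapped Wwp1, and its assignment to either gene is uncertain. All 10 long regions lay mainly in introns after the first, and the MEF B12 level was above the MEF level in 9 of them and the OSKM B12 level in 6.

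**Figure D4:**
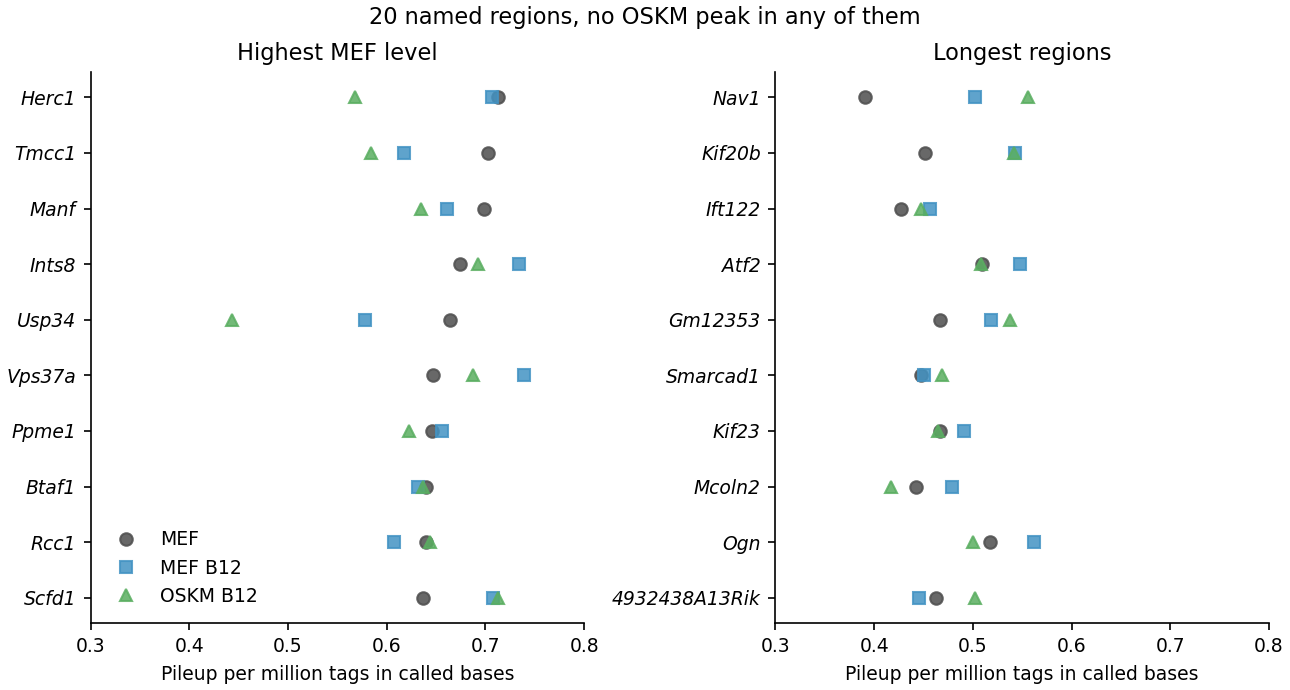
Pileup per 1000000 tags (x axis) in MEF, MEF B12 and OSKM B12 for the 10 regions with the highest MEF level (left) and the 10 longest regions (right), 1 gene per row; each symbol is 1 library, without error, and OSKM has no peak in any of them. On the left OSKM B12 ranged from 0.443 to 0.713, on the right from 0.417 to 0.556.

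The genes with the most regions were Cped1 with 9, then Nbas, Utrn, Slit2, Slit3, Dock10 and 4932438A13Rik with 8 each, and, of those with 7, Col14a1, Myo9a and Dock1, which among genes tied at that number had the most bases in regions. All 78 of these regions lay mainly in introns after the first. Cped1, 270489 bases long on the plus strand (chr6:21985916-22256404), had 17 long MEF peaks, of which 12 were absent in OSKM and 9 were regions. These 9 lay between 41.7% and 91.7% of the gene, at 0.375 to 0.480 in MEF, 0.386 to 0.520 in MEF B12 and 0.377 to 0.475 in OSKM B12. Peaks covered 18.6% of the Cped1 body in MEF, 18.3% in MEF B12 and 21.3% in OSKM B12, against 4.33% in OSKM.

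**Figure D5:**
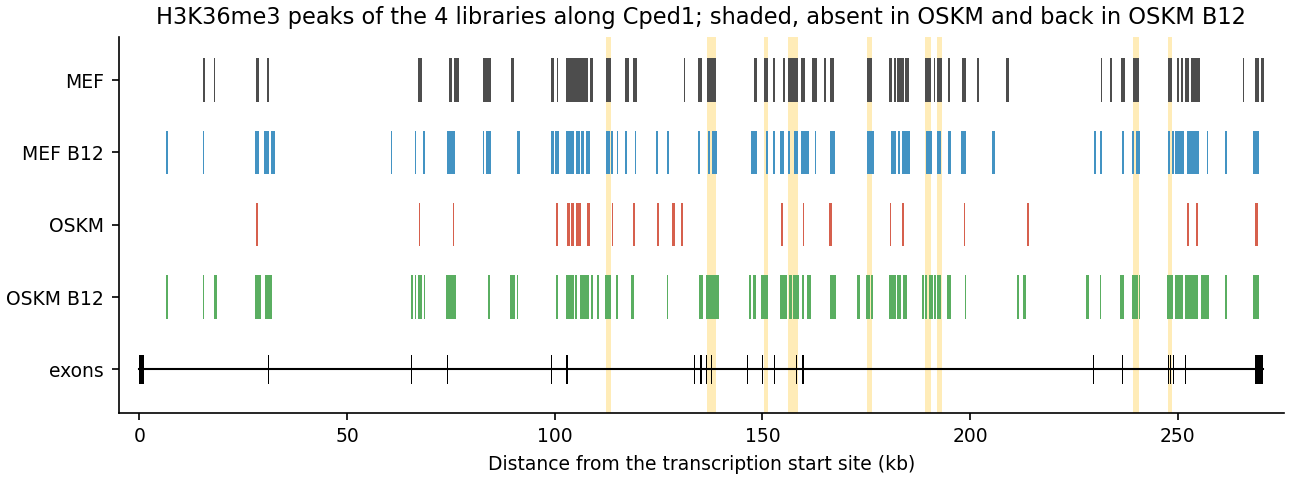
Peaks of the 4 H3K36me3 libraries (rows) along Cped1 by distance from the transcription start site (x axis, kb), with exons below; yellow bands mark its 9 regions. OSKM has peaks between the bands but none inside them, and its peaks cover 4.33% of the gene against 18.3% to 21.3% in the other libraries.

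Slit2 and Slit3, secreted ligands of the Robo receptors that guide axons and migrating cells, each held 8 regions, of 24 and 38 long MEF peaks. Their bodies were covered by 23.2% and 21.5% in MEF, 27.3% and 22.0% in MEF B12, 22.5% and 24.1% in OSKM B12, but 7.25% and 10.1% in OSKM. Utrn, which encodes utrophin, a link between actin and the membrane, was at 19.9%, 23.6% and 21.2% in MEF and the B12 libraries and at 8.07% in OSKM. Col14a1, a fibril-associated collagen of the fibroblast matrix, was at 31.5%, 40.9% and 34.3%, and at 8.15% in OSKM. In each of these genes OSKM was lowest, which the choice of genes by regions without an OSKM base favours. Among the 78 regions, 64 had 50% or more of their bases in MEF B12 peaks. 1 region each of Col14a1, Dock1, Slit2, Slit3 and Utrn had no base in them.

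In 106 of the 2342 genes with a region, OSKM had no peak anywhere in the gene. The share of such genes among all genes with a long MEF peak was not counted. By region it was 3.10%, against 4.09% of the weighted peaks when OSKM peaks that overlap them are left out. A gene without other OSKM peaks was thus not particular to the regions. The 5 of the 106 genes with the most bases in regions, which were picked after their values were seen, were Mcoln2, Rsad2, Mob1b, Epha7 and Gdf11. Mcoln2, a cation channel of the endolysosome, held 3 regions and was covered by peaks over 29.6% of its body in MEF, 37.6% in MEF B12 and 26.3% in OSKM B12, and its nearest OSKM peak lay 148563 bases from the longest region. Rsad2, the interferon-induced antiviral enzyme viperin, held 2 regions of 1346 and 4437 bases, with 0.533 and 0.527 in MEF, and 1 peak of each B12 library reached into both (0.598 in MEF B12 and 0.515 in OSKM B12). Its body was covered by 42.2% in MEF, 57.2% in MEF B12 and 54.1% in OSKM B12. Gdf11, a ligand of the TGF-beta family, had 42.5%, 50.2% and 45.6%. In the receptor tyrosine kinase gene Epha7 the cover was low throughout, at 4.19%, 7.99% and 3.93%. For Mob1b, a regulator of the Hippo pathway, it was 15.5%, 15.8% and 13.2%.

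Gene lists of the tissue and the treatment were then counted against the 27.5% of genes and the 12.7% of long MEF peaks that met the rule overall. List shares of genes were not weighted for the number of peaks per gene. List shares of peaks were not weighted for length or level, with which the share moved, so an excess in a list was not tested. Of the TGF-beta and mesenchymal transcription factor list, 20 of 28 genes with a long MEF peak held a region (71.4%), and 35 of their 165 peaks were regions (21.2%). These genes were long, with a median of 69.2 kb and 5 peaks, and 57.5% of all genes with 5 to 9 such peaks held a region. They included the receptors Tgfbr1 (3 regions), Tgfbr2 (2) and Tgfbr3 (3), the latent TGF-beta binding protein Ltbp2 (4), the transducers Smad3 and Smad7 (1 each), the zinc-finger repressors Zeb1 (1) and Zeb2 (4), Runx1 (3) and the Hippo coactivators Yap1 and Wwtr1 (2 each). The longest was in Runx1 (chr16:92610497-92613789, intron 7), with 0.443 in MEF, 0.498 in MEF B12, no peak in OSKM and 0.466 in OSKM B12. Ltbp2 was covered by peaks over 36.4% of its body in MEF, 36.1% in MEF B12 and 22.1% in OSKM B12, against 4.86% in OSKM. Across the 34 genes of the list, the median cover was 24.0%, 26.4% and 25.8%, against 8.70% in OSKM.

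Of the fibroblast matrix and surface list, 13 of 41 genes held a region (31.7%), with 25 of 220 peaks (11.4%). The median was 4 long MEF peaks per gene, and 33.1% of all genes with 3 to 4 such peaks held a region. Cd44, the hyaluronan receptor, held 4, and its longest (chr2:102859802-102862070) had 0.425 in MEF, 0.556 in MEF B12, no peak in OSKM and 0.556 in OSKM B12. Tnc, the matrix glycoprotein tenascin C, had 0.416, 0.409, no peak and 0.479, and its body cover was 26.1%, 32.1% and 17.2%, against 3.32% in OSKM. The other named members were Fstl1, with 0.422, 0.471, no peak and 0.491, and the lysyl oxidase Loxl1, with 0.464, 0.431, no peak and 0.512, whose region ended 2 bases from an OSKM peak. Of the actin and contractile list, 10 of 29 genes (34.5%) and 18 of 105 peaks (17.1%) were counted. The median was 2 long MEF peaks per gene, and 17.5% of all genes with 2 such peaks held a region. The longest regions of the actin list were in Palld, Svil, Myl9 and Tpm1, which bundle, bind or move actin filaments. Myl9, a myosin light chain, had a single region of 3480 bases at 0.413 in MEF, 0.505 in MEF B12, no peak in OSKM and 0.480 in OSKM B12, and no OSKM peak in its body.

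Of the list of writers, erasers and readers of H3K36 methylation, 14 of 31 genes held a region (45.2%), with 18 of 167 peaks (10.8%). These genes had a median of 4 long MEF peaks, and 33.1% of all genes with 3 to 4 such peaks held a region. Nsd2, which dimethylates H3K36, had 0.529 in MEF, 0.579 in MEF B12, no peak in OSKM and 0.614 in OSKM B12. Mtf2, a Polycomb-associated protein, had 0.536, 0.544, no peak and 0.501, and Morf4l1, a chromodomain reader of the mark, had 0.462, 0.559, no peak and 0.525. Setd2, the enzyme that trimethylates H3K36, held 1 region of its 10 long MEF peaks, and its body was covered by 65.9% in MEF, 68.2% in MEF B12 and 67.6% in OSKM B12, against 36.8% in OSKM. Of the vitamin B12, methionine and folate list, 6 of 26 genes (23.1%) and 8 of 99 peaks (8.08%) were counted. The median was 2.5 long MEF peaks per gene. Of all genes, 17.5% of those with 2 such peaks and 33.1% of those with 3 to 4 held a region. Cd320, the cellular receptor for vitamin B12 bound to transcobalamin, had its only long MEF peak as a region, at 0.445 in MEF, 0.526 in MEF B12 with 27.4% of its bases covered, no peak in OSKM and 0.427 in OSKM B12 with 98.8% covered. Tcn2, which encodes transcobalamin, had 0.422, 0.447, no peak and 0.546, with 45.6% of bases in MEF B12 peaks and 94.4% in OSKM B12 peaks. The longest region of Aldh1l1 and the region of Aldh1l2, which encode folate enzymes, had 67.9% and 94.9% of bases in MEF B12 peaks and 90.9% and 54.4% in OSKM B12 peaks. MEF B12 cover was thus the lower in Cd320, Tcn2 and Aldh1l1 and the higher in Aldh1l2. The rule required 50% cover in OSKM B12 but none in MEF B12.

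The fewest regions were in the list of oxidative phosphorylation subunits, with 3 of 45 genes (6.67%) and 3 of 64 peaks (4.69%), namely Cox5a, Ndufa13 and Ndufb6. These genes were short, with a median of 9.14 kb and 1 peak, and 6.55% of all genes with 1 such peak held a region. The Ndufa13 region overlapped Yjefn3 as well. Of the cell cycle and DNA replication list, 9 of 45 genes and 14 of 142 peaks (9.86%) were counted, with 3 regions each in Mcm10 and Cdc45, factors that act in the activation of the replicative helicase. The median was 2 long MEF peaks per gene, and 17.5% of all genes with 2 such peaks held a region. The median body cover of the cell cycle list was 64.6% in MEF, 68.0% in MEF B12 and 67.2% in OSKM B12, against 38.4% in OSKM. Each of the 7 lists had its lowest median cover in OSKM, whether or not its share of regions was above the background.

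The label of the cells was checked against marker genes. Of 10 fibroblast markers, 8 had a peak in MEF, 9 in MEF B12 and 8 each in OSKM and OSKM B12, with a median body cover of 77.8%, 78.8%, 67.2% and 78.9% in that order, and 1 of them, Prrx1, held a region. None of the 12 pluripotency markers had a peak in MEF, MEF B12 or OSKM B12 and 1 had one in OSKM. Of 10 epithelial markers, 1 or 2 had a peak in each library, and of 10 blood and endothelial markers, 3 to 5. No gene of these 3 lists had a MEF peak of 1000 bases or more, so none could hold a region. By chromosome, the share of long MEF peaks that met the rule ran from 10.2% on chromosome 11 to 15.6% on chromosome 18.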

How the data were processed

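H3K36me3 ChIP–seq peak lists of 4 libraries, each called against its own input, were used. Per the submitters' processing notes and the file headers, reads were aligned by the authors (Bowtie 0.12.9, mm10), who called broad peaks with MACS2 2.2.6 (q cutoffs 0.05 and 0.1, an effective genome size of 3.21e+09). That size is not the usual mouse value and bears on which weak peaks, such as these regions, were called in all 4 lists, and its effect was not tested. The deposited values per peak are the pileup signal, the fold enrichment ratio over input, and −log10 p and q, each given by the authors as the mean over the peak. Tags after filtering numbered 29046913 to 33399267, and duplicates had been removed.

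Pileup was scaled to 1000000 tags. Overlaps were counted in bases. Genes were the longest protein-coding transcripts of GENCODE M21, and a region belonged to the gene with which it shared most bases, ties going to the shorter gene. The peak ends fit the chromosome lengths of GRCm38.p6. OSKM-overlapping MEF peaks were weighted to the regions' distribution over 10 by 10 strata of length and level, with no random draw. After weighting the mean length was 1562 bases in the regions and 1623 in the weighted peaks, and the mean level 0.441 and 0.444. Intervals are Wilson 95% intervals for shares and normal intervals for means and ratios. Interval sums and weighting were tested on simulated data. Computation used Python 3.11 with numpy, pandas and scipy.

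The regions and the gene lists were chosen with earlier results of these data known. Named genes were those of the 10 regions with the highest MEF level, the 10 longest, the 10 genes with the most regions (ties by their bases), and up to 4 genes of each of 7 lists by length of region. The result for 1 of them is not reported here. The list genes beyond these 4 and the genes without an OSKM peak were named after their values were seen. Chromosomes X and Y were kept apart. No p-value is given because each condition has 1 library.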

Additional observations from a re-analysis of the deposited data

Results flagged for a closer look

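The comparisons used chromosomes 1 to 19 only. On chromosome X, which was outside them, 211 of 854 MEF peaks of 1000 bases or more met the same rule (24.7%, 95% Wilson interval 21.9 to 27.7), against 10.2% to 15.6% on chromosomes 1 to 19. The median level of these 854 peaks was 0.353 (pileup per 1000000 tags), against 0.502 to 0.530 on chromosomes 1 to 19. On chromosome Y, 4 of 22 peaks met the rule (18.2%, 7.31 to 38.5). The part of the low level in the higher share on chromosome X was not tested.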

How the results depend on the processing

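No paired analysis was possible because there is a single H3K36me3 library per condition. The count of regions was 3998, and 743 with −log10 q of at least 3 in MEF and OSKM B12, 1546 with 90% or more in OSKM B12 peaks, 2512 with no OSKM peak within 1 kb, 10607 at 500 bases or more and 660 at 2000 bases or more. In the same order of these 5 settings, the mean share of bases in MEF B12 peaks was 86.3%, 79.4%, 71.7%, 68.3% and 78.3%, against 73.6%, and its difference from the weighted peaks was −2.04, −0.50, −6.38, −6.25 and −5.45 percentage points, against −4.91. The difference in MEF B12 cover was smallest in size when regions had to be 90% covered in OSKM B12. That cover was not required of the weighted peaks, so the 2 sides were not alike in it. The difference in median position was −4.69, −4.70, −3.98, −3.30 and −5.08 percentage points of the gene, against −3.22. An OSKM peak elsewhere in the gene was found for 96.3% of regions (0.32 percentage points from the weighted peaks) at 90% cover, 95.3% (−0.59, a reversed difference) with no OSKM peak within 1 kb and 95.8% at 2000 bases, against 96.9% (0.98), and the difference was 1.64 with −log10 q of at least 3. The share in gene bodies was 94.8% (a difference of 1.05) at 2000 bases and 94.0% with noncoding genes included, against 92.7% (0.14). The ratio of MEF B12 to MEF level was 1.00 for undivided pileup and 1.09 for fold enrichment, against 1.12, and its difference from the weighted peaks −0.020 for fold enrichment, against −0.034. The other 33 values moved by less than their counting interval, or for counts by less than 1.5 times. The cause of the moves was not tested. Peak lists set a floor on what can be seen: below the lowest called pileup of 8 or 9 fragments no level is known, and absence from a list is not absence of the mark.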
